A study of Mus musculus with 34 samples.

Results

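Acute phase proteins are plasma and mucosal proteins whose synthesis changes during inflammation. Their genes were followed here in the distal colon of mice with recurrent colitis evoked by TNBS, a hapten that couples to colonic proteins and so becomes a target of immunity. The 9 genes were Hp, Saa1, Saa2, Saa3, Lcn2, Orm1, Orm2, Lrg1 and Cp, taken by symbol from the annotation of the array. They are represented by 11 of 25697 probes, since Hp has 3, and all 9 were among the 14010 genes tested. Groups of 5 female BALB/c mice were examined on days 9, 14, 16, 21, 23 and 28 after skin sensitisation with TNBS, and were set against 4 healthy mice of the same strain. TNBS in ethanol had been instilled rectally on day 7 (0.75 mg), day 14 (1.5 mg) and day 21 (2.25 mg), so that days 9, 16 and 23 lay 2 days after an instillation and days 14, 21 and 28 lay 7 days after. Each mouse was sacrificed once and gave 1 array. Whether the healthy mice were sensitised or received ethanol is not stated in the sources used here, and dose, number of instillations and time since day 0 rise together, so they cannot be told apart.

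Most of these proteins are known as products of the liver, where interleukins of the Il6 family act through Stat3 and Il1b and Tnf act through C/EBP and NF-kappaB factors. Several are also made at the site of inflammation by epithelium, macrophages, fat cells or neutrophils. Haptoglobin and lipocalin 2 withhold iron from microbes, serum amyloid A proteins carry lipids and attract leukocytes, and ceruloplasmin oxidises iron with the help of copper.

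The values are the deposited log2 signals of Illumina bead arrays. Background was taken from 1324 probes of odorant, vomeronasal and trace amine receptors, and a signal counted as above it if it exceeded their 95th percentile on its own array, which lay between 4.48 and 4.93 on the log2 scale. If no mouse of the dimmer group passed it, only a lower bound of the fold is given, for which each dim signal is raised to the background of its array. Between 48.5% and 52.8% of all probes passed it per array. Of 9 distal colon markers with a probe, 8 were above background in all 34 arrays, among them Car4, Aqp8 and Krt20. Arrays of 5 mice stood apart by skeletal muscle markers, which averaged 3.77 to 7.02 log2 units above the healthy mean, namely day 9 mice 2, 3 and 5, day 14 mouse 5 and day 21 mouse 5. Squamous epithelium markers were 2.61 to 4.34 units above the healthy mean in day 9 mice 4 and 5 and day 14 mouse 4. Of the day 9 mice only mouse 1 is in neither set. Results of Hp, Saa3, Lcn2, Lrg1 and Cp that lost their call or moved over 1.5-fold without these arrays are given with and without them. Genes outside the members were not examined without these arrays, which limits their day 9 results below. Fold changes below, other than the lower bounds, come from 1 limma fit of the 34 arrays unless another fit is named. The p-values are adjusted over all 21110 probes tested and called under 0.05. A lower bound is a difference of group means and has no test or error of its own. The p-value printed beside it belongs to the fitted difference of the floored signals.

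The 3 serum amyloid A genes stand in a cluster of 42.3 kb on chromosome 7, from 46711998 to 46754313 in GRCm38.p6, and their promoters are shown because Saa3 was called between 2 and 7 days after an instillation and its neighbours were not. RefSeq promoters, 250 bases before to 50 after the start, were at hand for 7 of the 9 members. Capitals mark a match to the C/EBP letters TTNNGCAA on either strand, and Lcn2 on chromosome 2 is given beside them as the promoter of another gene that holds these letters. Of 32851 RefSeq promoters of this length, 10.8% have such a match.
Saa1, chr7:46742931-46743230, minus strand: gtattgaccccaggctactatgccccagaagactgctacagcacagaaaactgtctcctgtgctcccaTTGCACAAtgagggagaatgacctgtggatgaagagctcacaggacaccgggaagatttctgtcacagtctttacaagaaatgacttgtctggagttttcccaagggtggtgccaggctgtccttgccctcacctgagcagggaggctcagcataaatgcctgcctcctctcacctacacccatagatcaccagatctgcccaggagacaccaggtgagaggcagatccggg
Saa2, chr7:46751583-46751882, plus strand: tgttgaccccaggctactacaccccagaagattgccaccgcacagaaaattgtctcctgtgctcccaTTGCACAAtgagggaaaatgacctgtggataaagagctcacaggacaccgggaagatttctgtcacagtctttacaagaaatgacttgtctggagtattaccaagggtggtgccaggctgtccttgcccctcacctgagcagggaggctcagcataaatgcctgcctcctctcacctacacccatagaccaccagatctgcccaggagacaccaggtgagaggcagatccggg
Saa3, chr7:46715627-46715926, minus strand: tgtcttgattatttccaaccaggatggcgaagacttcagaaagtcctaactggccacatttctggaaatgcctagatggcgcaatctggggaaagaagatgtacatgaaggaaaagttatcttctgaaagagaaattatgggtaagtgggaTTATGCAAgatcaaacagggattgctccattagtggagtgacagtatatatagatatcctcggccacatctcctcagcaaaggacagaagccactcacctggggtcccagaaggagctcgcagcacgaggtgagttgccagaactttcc
Lcn2, chr2:32387690-32387989, minus strand: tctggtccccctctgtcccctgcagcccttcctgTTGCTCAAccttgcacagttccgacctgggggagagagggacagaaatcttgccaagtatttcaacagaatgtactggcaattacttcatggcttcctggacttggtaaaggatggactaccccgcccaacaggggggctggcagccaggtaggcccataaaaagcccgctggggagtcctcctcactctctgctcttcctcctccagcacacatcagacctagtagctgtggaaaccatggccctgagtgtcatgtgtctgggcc
The Saa1 and Saa2 promoters were identical in 287 of 301 aligned columns, 95.3%, with the C/EBP letters at -182 and -183 from the start. The Saa3 promoter shared 54.1% of aligned columns with Saa1 and 53.3% with Saa2, beside 54.2% between the Lcn2 and Lrg1 promoters, and its C/EBP letters begin at -99. Matches also begin at -216 in Lcn2, -120 in Orm2 and -70 in Cp, and none was found in this window of Lrg1. The letters TTCNNNGAA of a STAT site (8.3% of all promoters) and the NF-kappaB motif (8.46%) had no match in the 7 promoters. A match of letters describes the sequence and shows no binding.

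**Figure D1:**
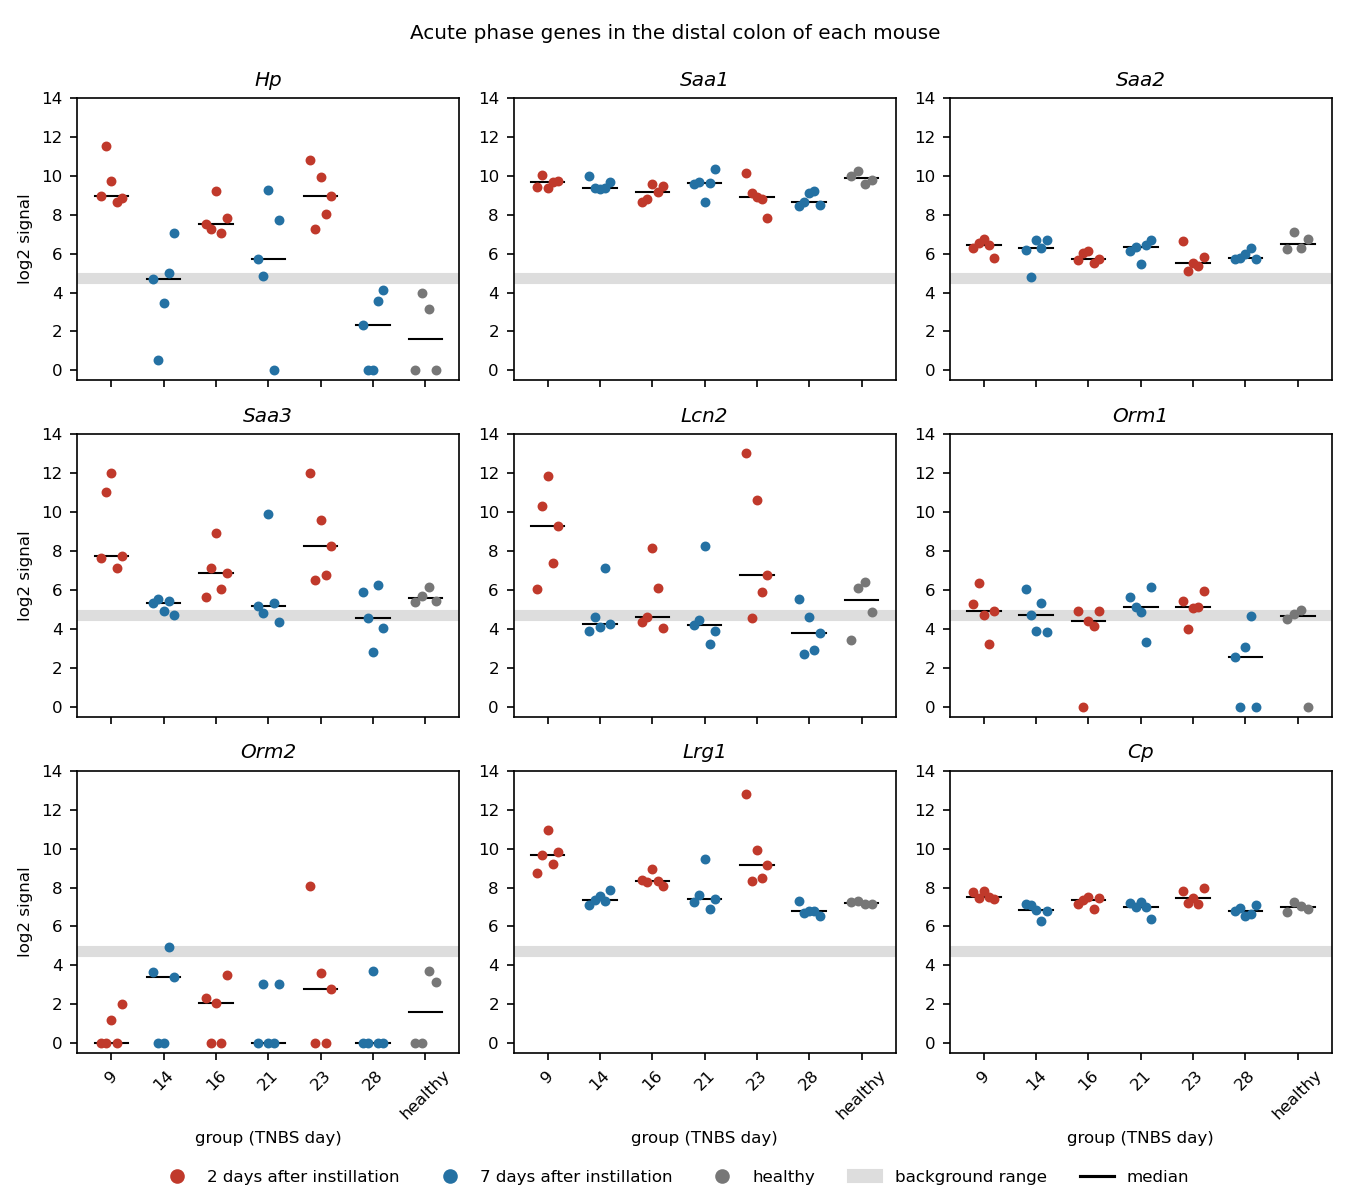
Deposited log2 signal (y axis) of the 9 genes in each mouse, by day after sensitisation and for healthy mice (x axis). Points are mice, black lines medians, and the grey band is the range of the background over arrays. All 5 mice of days 9, 16 and 23 lay above all 4 healthy mice for Hp and Lrg1, while the signals of Saa1 stayed between 7.84 and 10.33.

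Hp showed the widest course. It encodes haptoglobin, which binds free haemoglobin, and lies on chromosome 8 at 109575128 to 109579172. The log2 signal of its brightest probe was 8.96, 11.53, 9.74, 8.63 and 8.87 in the day 9 mice, 7.50, 7.28, 9.21, 7.04 and 7.81 in the day 16 mice and 10.82, 7.27, 9.96, 8.05 and 8.97 in the day 23 mice, against 0.01, 3.98, 3.18 and 0.00 in the healthy mice. No healthy mouse was above background and all 15 mice killed 2 days after an instillation were. Signals 7 days after an instillation were 4.69, 0.53, 3.48, 5.01 and 7.04 on day 14, 5.74, 4.84, 9.27, 0.00 and 7.71 on day 21, and 2.32, 0.00, 0.00, 3.59 and 4.13 on day 28. The day 14 and day 21 mice spread from signals as low as those of healthy mice to signals in the range seen 2 days after an instillation, and on day 28 none was above background by this probe, while another Hp probe was above it in 2 of 5 day 28 mice. Hp was at least 29.2-fold higher on day 9 (adjusted p = 0.00039), at least 8.52-fold higher on day 16 (adjusted p = 0.0054) and at least 20.2-fold higher on day 23 (adjusted p = 0.00029) than in healthy mice. Without the muscle arrays the day 9 bound was 17.4-fold (adjusted p = 0.017), and without the squamous arrays 42.1-fold. On day 21 Hp was at least 2.46-fold above healthy by this probe and at least 1.74-fold and 2.53-fold by the other 2. None of the 3 passed the test (adjusted p = 0.16, 0.43 and 0.15). Its other 2 probes, above background in no healthy mouse, passed on the same 3 days and were at least 12.3-fold and 15.4-fold higher on day 9, 4.16-fold and 4.46-fold on day 16, and 9.21-fold and 11.3-fold on day 23. With the background set at the 99th percentile of the receptor probes the bounds of the brightest probe were 14.9-fold, 4.36-fold and 10.3-fold.

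Lrg1 encodes a leucine-rich glycoprotein known from liver, neutrophils and inflamed endothelium, where it modifies TGF-beta signalling. It was above background in all 34 mice. Its log2 signals were 8.75, 9.66, 10.97, 9.23 and 9.84 on day 9, 8.38, 8.26, 8.94, 8.34 and 8.07 on day 16 and 12.83, 8.32, 9.92, 8.51 and 9.17 on day 23, against 7.28, 7.33, 7.16 and 7.14 in healthy mice. These 3 groups did not overlap the healthy mice, whose 4 values lay close together. Lrg1 rose 5.50-fold on day 9 (log2 change 2.46, SE 0.58, adjusted p = 0.022) and 5.73-fold on day 23 (2.52, SE 0.58, adjusted p = 0.0066). Without day 23 mouse 1, which had the highest signal, the day 23 change was 1.75 (adjusted p = 0.0085). The day 16 change of 1.17 (SE 0.58) did not pass (adjusted p = 0.30), although it did in a fit of these 9 mice alone (adjusted p = 0.014). The day 9 call was lost without day 9 mouse 3 (adjusted p = 0.066), day 9 mouse 5 (0.055) or healthy mouse 1, 3 or 4 (0.056 to 0.062), without the muscle arrays (change 1.76, adjusted p = 0.30) and without the squamous arrays (2.56, adjusted p = 0.075). In fits of the compared mice alone neither the day 9 call (adjusted p = 0.084) nor the day 23 call (adjusted p = 0.19) held. On days 14, 21 and 28 the signals ranged from 7.12 to 7.85, from 6.90 to 9.47 and from 6.55 to 7.31, all overlapping the healthy range, with log2 changes of 0.21, 0.50 and -0.40 (adjusted p = 0.95, 0.82 and 0.85).

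Saa3 is the serum amyloid A gene that mice express mainly outside the liver, in macrophages, fat and gut epithelium. The log2 signals were 7.64, 11.02, 12.01, 7.15 and 7.77 on day 9, 5.63, 7.13, 8.92, 6.03 and 6.88 on day 16 and 12.02, 6.51, 9.60, 6.78 and 8.29 on day 23, against 5.38, 5.70, 6.18 and 5.44 in healthy mice. Every day 9 and day 23 mouse lay above every healthy mouse, while day 16 overlapped them. The changes against healthy mice were 3.44 (SE 1.09, adjusted p = 0.095) on day 9, 1.24 (SE 1.09, adjusted p = 0.64) on day 16 and 2.96 (SE 1.09, adjusted p = 0.099) on day 23, none past the test. The day 9 change was 1.72 without the muscle arrays (adjusted p = 0.64) and 4.54 without the squamous arrays (adjusted p = 0.075), and the day 23 change was 2.12 without mouse 1 of that day (adjusted p = 0.25). Signals of days 14, 21 and 28 ran from 4.74 to 5.53, from 4.38 to 9.89 and from 2.81 to 6.28, and only day 21 mouse 3, at 9.89, lay far above the healthy mice.

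Lcn2, which encodes lipocalin 2, an iron-siderophore binding protein of neutrophil granules and inflamed epithelium, varied most between mice of a group. The SD within groups was 2.08 log2 units, above that of 99.8% of probes. Its log2 signals were 6.07, 10.33, 11.84, 7.38 and 9.28 on day 9, 4.36, 4.62, 8.17, 6.11 and 4.07 on day 16 and 13.05, 4.56, 10.63, 5.88 and 6.79 on day 23, against 3.44, 6.13, 6.41 and 4.86 in healthy mice. All 3 groups overlapped the healthy mice, of which 3 were above background. The changes of 3.77 on day 9 (SE 1.35, adjusted p = 0.15) and 2.97 on day 23 (SE 1.35, adjusted p = 0.20) did not pass, and that of day 16 was 0.26 (adjusted p = 0.97). Without the muscle arrays the day 9 change was 1.52 (adjusted p = 0.80), and without day 23 mouse 1 that of day 23 was 1.76 (adjusted p = 0.48). On each of days 14, 21 and 28 a single mouse was above background, with 7.12, 8.27 and 5.54.

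Cp encodes ceruloplasmin, the copper-bearing ferroxidase, on chromosome 3. Its range over mice was narrow, with a within-group SD of 0.29. Its log2 signals read 7.77, 7.45, 7.83, 7.52 and 7.41 on day 9 and 7.83, 7.23, 7.48, 7.18 and 7.97 on day 23, against 6.72, 7.25, 7.07 and 6.90 in healthy mice. Day 9 did not overlap the healthy mice and day 23 did. Neither the change of 0.61 on day 9 (SE 0.20, adjusted p = 0.10) nor that of 0.55 on day 23 (adjusted p = 0.086) passed the test, and on day 16 the change was 0.30 (adjusted p = 0.48).

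Saa1 and Saa2, the serum amyloid A genes that serve as the classical acute phase forms of mouse liver, were called on no day. Both were above background in all 34 mice, although with the 99th percentile as background Saa2 passed in 27. Saa1 had log2 signals of 9.45, 10.05, 9.36, 9.68 and 9.73 on day 9, 10.13, 9.12, 8.89, 8.79 and 7.84 on day 23 and 8.44, 8.64, 9.14, 9.24 and 8.50 on day 28, against 9.99, 10.25, 9.56 and 9.76 in healthy mice. All 5 day 28 mice lay below all 4 healthy mice, while day 9 and day 23 overlapped them. The Saa1 change was -0.24 on day 9 (adjusted p = 0.80), -0.94 on day 23 (SE 0.32, adjusted p = 0.069) and -1.10 on day 28 (SE 0.32, adjusted p = 0.085). Saa2 signals ran from 5.52 to 6.16 on day 16, below every healthy mouse (6.26, 7.12, 6.27 and 6.75), and from 5.12 to 6.65 on day 23. Its changes were -0.78 on day 16 (SE 0.31, adjusted p = 0.18), -0.91 on day 23 (adjusted p = 0.077) and -0.70 on day 28 (adjusted p = 0.33). None of these passed, but without day 23 mouse 1, the mouse with the highest signal of both genes that day, both fell on day 23, by 1.23 for Saa1 (adjusted p = 0.0079) and by 1.15 for Saa2 (adjusted p = 0.018). With array weights both also fell on day 23 (adjusted p = 0.026 each) and Saa1 on day 28 (adjusted p = 0.028). The 2 genes are near copies of each other, and whether each probe also binds the transcript of the other was not tested.

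Orm1 and Orm2 encode orosomucoids, acidic plasma glycoproteins that bind lipids and drugs, and stand side by side on chromosome 4. Orm1 was above background in 19 of 34 mice by the 95th percentile and in 5 by the 99th. Its signals reached 6.37 on day 9, 6.07 on day 14, 4.94 on day 16, 6.17 on day 21 and 5.93 on day 23, and were 2.56, 0.00, 3.06, 4.69 and 0.01 on day 28, against 4.53, 4.76, 4.98 and 0.00 in healthy mice. Orm1 was above background in none of the day 28 mice. Its day 28 level did not pass the test against healthy mice (adjusted p = 0.49), and with the day 28 signals raised to background no fold above 1 remained. Orm2 was above background in only 2 mice, day 14 mouse 4 at 4.93 and day 23 mouse 1 at 8.08, so that no fold is given, and adjusted p on the 6 days was at least 0.52. Cross-binding between the orosomucoid transcripts was not tested.

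**Figure D2:**
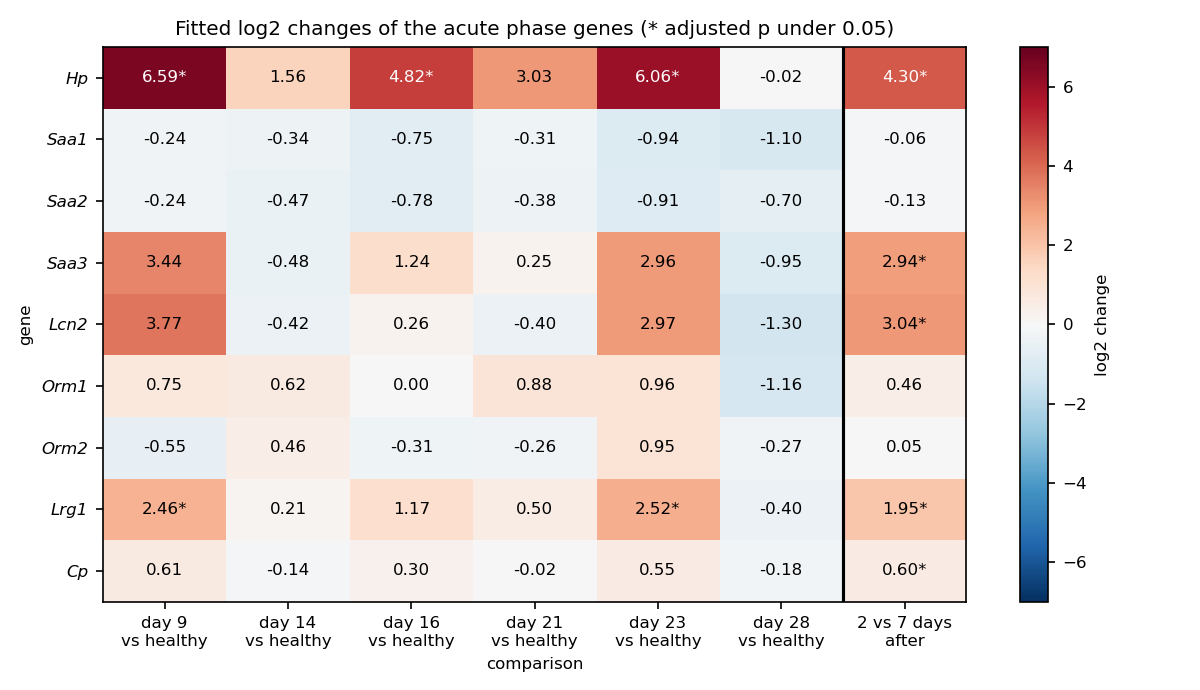
Fitted log2 changes of the 9 genes (rows) on each day against healthy mice and 2 against 7 days after instillation (columns), with red for higher and blue for lower and an asterisk where the limma adjusted p is under 0.05. Cells of Hp and the orosomucoids that involve a group below background are fitted differences from floored signals and no measured folds. Asterisks stand at Hp on days 9, 16 and 23, at Lrg1 on days 9 and 23 and at 5 genes in the last column.

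Counted over the members, 2 of 9 (Hp and Lrg1) were higher on day 9, when 1.38% of all genes tested were higher and 0.842% lower. On day 16 1 of 9 (Hp) was higher, against 2.31% of all genes (lower, 1.89%), and on day 23 2 of 9 (Hp and Lrg1), against 4.1% (lower, 3.53%). No member was called on day 14 (0.271% of all genes higher, 0.236% lower), day 21 (0.371% and 0.45%) or day 28 (0.835% and 0.571%), where limma gave unadjusted p under 0.05 for 0, 1 and 2 members and for 11.1%, 12.1% and 14.2% of all genes. No member was called lower on any day, while 7 of the 9 had an unadjusted p under 0.05 on day 23, as did 21.1% of all genes, Saa1 and Saa2 in the lower direction. The median change of the members was 0.75 on day 9 and 0.96 on day 23, beside -0.02 for all genes on both days, and it was -0.70 on day 28, or -0.40 once genes with a bound alone enter at that bound, beside 0.00. The medians of days 9 and 23 are the changes of Orm1, which was not called (adjusted p = 0.67 and 0.47) and was above background in 2 of 4 healthy mice. Without healthy mouse 4 the Orm1 changes were 0.14 and 0.35. All 6 comparisons use the same 4 healthy mice.

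The comparison of 2 with 7 days after an instillation rests on 15 mice each and does not use the healthy mice. It asks which members follow the time since the last instillation. Of the 9 members 5 were higher after 2 days, namely Hp, Lrg1, Saa3, Lcn2 and Cp, and 0 were lower, where 3.41% of all genes were higher and 2.93% lower. Hp was above background in 15 of 15 mice after 2 days and in 6 of 15 after 7 days, with a fitted log2 difference of 4.30 (SE 0.54, adjusted p = 6.6e-06). Lrg1 was 3.85-fold higher (log2 1.95, SE 0.31, adjusted p = 0.00019), and Cp 1.52-fold (0.60, SE 0.11, adjusted p = 0.00056). Saa3 was 7.69-fold higher (2.94, SE 0.59, adjusted p = 0.0023), with signals above background in 15 of 15 mice after 2 days and 10 of 15 after 7 days. Lcn2 was 8.21-fold higher (3.04, SE 0.73, adjusted p = 0.011), above background in 11 of 15 and 3 of 15 mice. Without the 5 arrays with muscle markers, 3 of which are from day 9, Saa3 (2.20, adjusted p = 0.052) and Lcn2 (2.17, adjusted p = 0.17) no longer passed. For Saa1 the difference was -0.06 (95% interval -0.41 to 0.30) and for Saa2 -0.13 (-0.48 to 0.22), so that differences past 0.41 and 0.48 log2 units lay outside these intervals. Orm1 differed by 0.46 (-0.29 to 1.21, adjusted p = 0.56).

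Split by cycle, 3 of 9 members were higher on day 9 than on day 14 (Hp, Lrg1 and Cp, against 0.6% of all genes), 0 on day 16 than on day 21 (0.814%, with 0 members and 16.1% of all genes at an unadjusted p under 0.05), and 4 on day 23 than on day 28 (Hp, Saa3, Lrg1 and Cp, against 1.27%). The brightest Hp probe was at least 19.3-fold higher on day 23 than on day 28 (adjusted p = 4e-04) and 5.04 log2 units higher on day 9 than on day 14 (SE 0.93, adjusted p = 0.005), where 2 of 5 day 14 mice were above background. Of the other Hp probes, 1 was 10.3-fold higher on day 23 than on day 28 (adjusted p = 0.011) and 1 at least 10.7-fold (adjusted p = 0.0013). They were 3.55 and 4.06 log2 units higher on day 9 than on day 14. Without the muscle arrays the calls for day 9 against 14 were lost, with changes of 4.92 for Hp (adjusted p = 0.097) and 0.78 for Cp (0.25) close to those with all arrays, 5.04 and 0.75, and a lower one of 1.65 for Lrg1 (0.58). Without the squamous arrays Hp was called (5.69, adjusted p = 0.023), while Lrg1 (2.32, adjusted p = 0.16) and Cp (0.71, adjusted p = 0.17) were not. Lrg1 was 7.55-fold higher on day 23 than on day 28 (2.92, SE 0.54, adjusted p = 0.0034) and 4.75-fold higher on day 9 than on day 14 (2.25, adjusted p = 0.042). Without day 23 mouse 1 the Lrg1 difference of day 23 against 28 was 2.15 (adjusted p = 0.0032). Saa3 was 15.1-fold higher on day 23 than on day 28 (3.92, SE 1.02, adjusted p = 0.048), and the difference between days 9 and 14 had the same size and an adjusted p of 0.066. Lcn2 differed by 4.19 between days 9 and 14 (adjusted p = 0.13) and by 4.27 between days 23 and 28 (adjusted p = 0.096). For day 9 against 14 the differences of Saa3 and Lcn2 were 2.08 (adjusted p = 0.73) and 1.80 (0.85) without the muscle arrays, and 5.09 (0.054) and 5.20 (0.16) without the squamous arrays. Without day 23 mouse 1 the Saa3 difference of day 23 against 28 was 3.07 (adjusted p = 0.14). Calls this close to the threshold moved with single arrays. Leaving out 1 array at a time, Lrg1 lost the call of day 9 against 14 in 17 of 34 fits, Cp in 19 of 34, and Saa3 that of day 23 against 28 in 23 of 34 and Cp in 7 of 34, whereas Hp kept both of its calls in all 34. Fits of the compared mice alone called 0 members for day 9 against 14 and 1 for day 23 against 28.

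**Figure D3:**
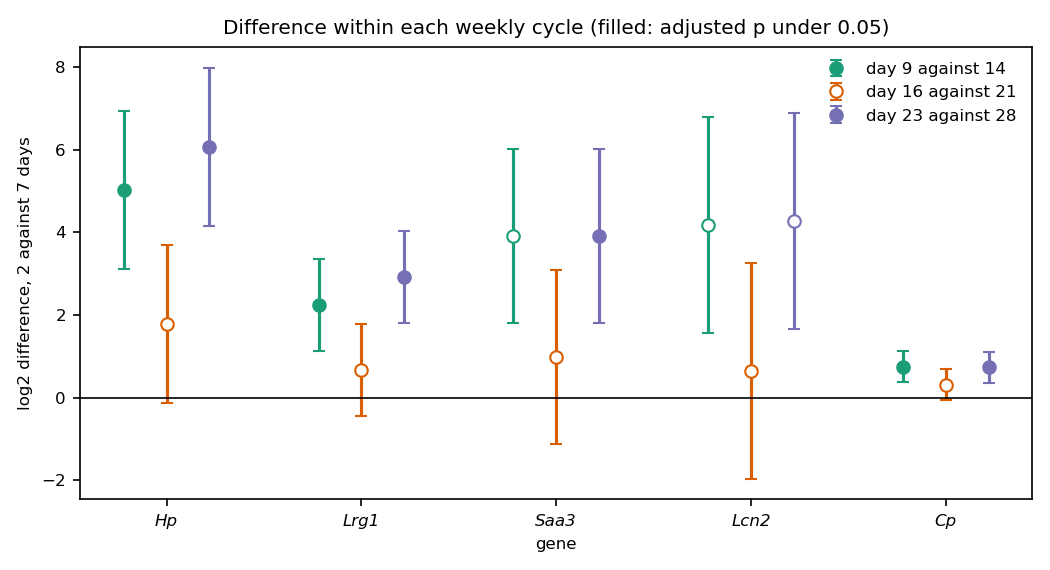
Log2 difference between 2 and 7 days after each of the 3 instillations (y axis) for 5 genes (x axis). Points are fitted differences between 5 and 5 mice, bars 95% confidence intervals, and filled points pass the adjusted p. The Hp point of day 23 against day 28 comes from floored signals and is no measured fold, since no day 28 mouse was above background by this probe. The second cycle, day 16 against day 21, has the lowest difference for each of the 5 genes, with intervals that include 0.

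Differences between the cycles themselves did not pass the test. The Hp difference of the second cycle was 3.25 log2 units below that of the first (SE 1.32, adjusted p = 0.45), and that of the third was 4.29 above the second (SE 1.32, adjusted p = 0.19), a fitted value that includes day 28 signals below background. For Lrg1 the third exceeded the second by 2.25 (SE 0.77, adjusted p = 0.24). No member was called among the differences between cycles, where 0.0286%, 0.00714% and 0.0642% of all genes were called for the second against the first, the third against the second and the third against the first, and 2, 3 and 2 members had an unadjusted p under 0.05 (9.17%, 11.9% and 8.34% of all genes). Nor was any called between groups at the same interval after an instillation. Of all genes, 0.107% were called for day 16 against 9, 0.00714% for day 23 against 16, 0.178% for day 23 against 9, 0% for day 21 against 14, 0.328% for day 28 against 21 and 0.0143% for day 28 against 14, with 3, 2, 3, 0, 3 and 2 members at an unadjusted p under 0.05, against 9.07%, 6.25%, 9.87%, 6.96%, 14.7% and 8.29% of all genes. Lcn2 was 3.51 log2 units lower on day 16 than on day 9 (SE 1.27, adjusted p = 0.40) and Lrg1 1.29 lower (SE 0.54, adjusted p = 0.48), and against day 9 the day 23 values of Hp, Lrg1, Saa3 and Lcn2 differed by -0.53, 0.06, -0.48 and -0.80 of which Lrg1 had the narrowest interval, from -1.06 to 1.18.

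**Figure D4:**
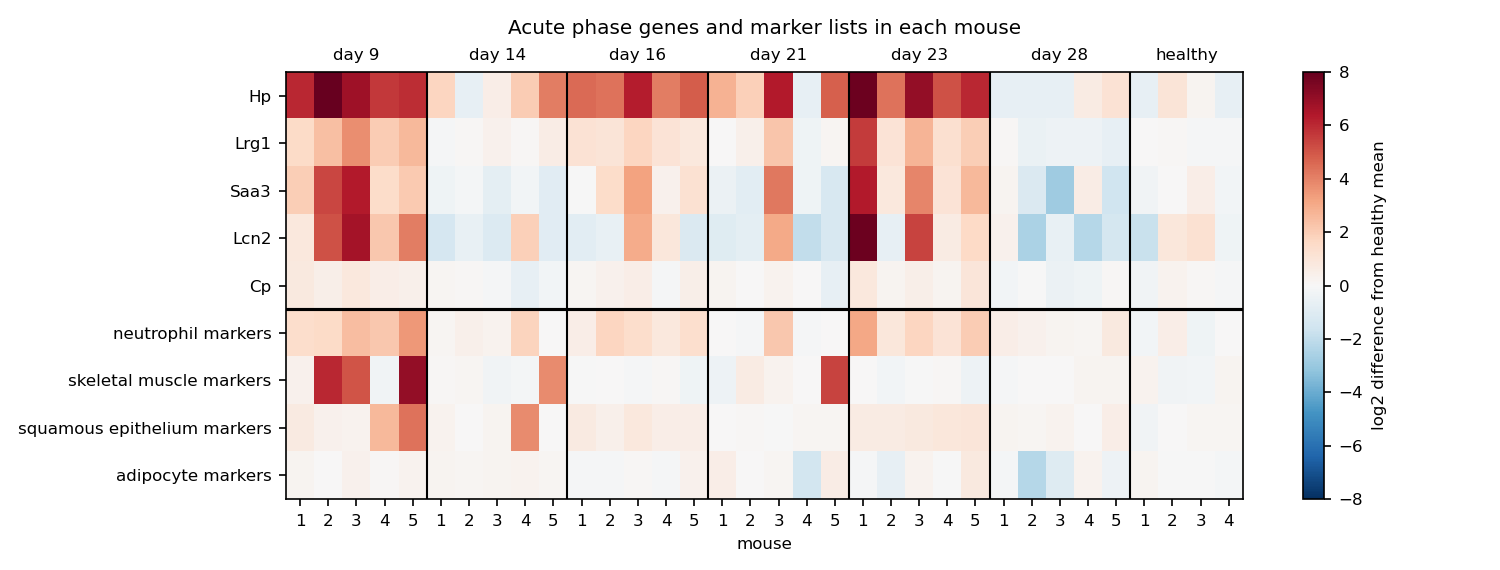
Log2 difference from the healthy mean (colour) of 5 genes and, below the line, of the mean of 4 marker lists, for each mouse (columns) by group. Values past 8 are drawn at 8. The healthy mean of Hp comes from floored signals below background, so that its colours are no measured folds. Day 9 mouse 3, day 16 mouse 3, day 21 mouse 3 and day 23 mouse 1 stand out in several genes at a time, and the 5 arrays with muscle markers are the dark cells of that row.

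The members called higher after 2 days were often highest in the same mouse of a group. Day 16 mouse 3 and day 21 mouse 3 had the highest signal of their group for all 5 of Hp, Lrg1, Saa3, Lcn2 and Cp, day 9 mouse 3 for 4 of them (Hp was highest in mouse 2) and day 23 mouse 1 for 4 (Cp was highest in mouse 5). On day 14 the highest signals of the 5 genes were spread over 4 mice and on day 28 over 3. Day 16 mouse 3 and day 23 mouse 1 were also highest for Saa1 and Saa2, which were not called. Day 21 mouse 3 was lowest of its group for both, and day 9 mouse 3 was lowest for Saa1 and highest for Saa2. Over the 34 arrays, which share the group differences, Saa3 correlated with Lrg1 at r = 0.90, Lcn2 with Lrg1 at 0.89, Saa3 with Lcn2 at 0.88, Hp with Lrg1 at 0.84 and Cp with Saa3 at 0.75. Saa1 and Saa2 correlated with each other at r = 0.62 and with these 5 genes between -0.13 and 0.12. Over all genes outside the members, the 3 most like Hp were Gpx3 (r = 0.88), Chil1 (0.87) and Reg3b (0.85), those most like Saa3 were Clec4d (0.89), Reg3b (0.87) and Chil1 (0.84), and those most like Lrg1 were Gpx3 (0.92), Timp1 (0.91) and Ier3 (0.90). Lcn2 came closest to Clec4d (0.87), Il33 (0.85) and Cstdc4 (0.84), and Cp to Wfdc17 (0.86), Ms4a6d (0.83) and Fxyd5 (0.79). Gpx3 encodes a secreted glutathione peroxidase, Reg3b an antimicrobial lectin of gut epithelium, and Clec4d a lectin receptor of myeloid cells. Saa1 was most like Naprt (0.80), Cyp2d34 (0.76) and Pllp (0.75), Saa2 most like Txn2 (0.67), Ecsit (0.67) and Cyp2d13 (0.63), and Orm1 most like the fat cell genes Cidec (0.71), Car3 (0.69) and Plin4 (0.67).

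Markers of other cells moved beside these genes. The summed linear signal of 15 neutrophil markers ran from 3653 to 16735 on day 9, from 889 to 4121 on day 16 and from 1348 to 20209 on day 23, and from 920 to 8274 on day 14, 498 to 8216 on day 21 and 889 to 1387 on day 28, against 439 to 1117 in healthy mice. In healthy mice Fcgr4 had by far the highest signal of the list, with a mean log2 signal of 8.47, beside 4.94 for Mmp9. The sum is therefore no measure of neutrophil number. Of these markers 5 of 12 tested were higher 2 than 7 days after an instillation, against 3.41% of all genes. They were led by S100a9 (fitted 5.03 log2 units, above background in 15 of 15 mice against 3 of 15) and S100a8 (fitted 4.74, 15 of 15 against 7 of 15). Mmp8 and Il1f9 were above background in none of the arrays, Elane and Mpo in 1 each, and Cxcr2, Camp, Stfa1 and Ngp in 5, 5, 4 and 10. The top mouse of the neutrophil sum was mouse 5 on day 9, mouse 2 on day 16, mouse 3 on day 21 and mouse 1 on day 23, and the last 2 were also the top mice of Hp, Saa3, Lcn2 and Lrg1. In bulk tissue more cells of a type and more RNA per cell cannot be told apart, and the part of neutrophils in the results was not tested. The defining hepatocyte genes Alb, Ahsg, Apoh and Fgb were above background in none of the 34 arrays, as were 3 more of the 11 hepatocyte markers. Ttr and Cps1 were above it in all, Apoa1 in 4, all of day 9, and Apoa2 in 1. The summed hepatocyte signal ran from 663 to 2649 2 days and from 1194 to 5069 7 days after an instillation, against 2185 to 3012 in healthy mice. In healthy mice Ttr alone carried most of this sum, with a mean log2 signal of 11.24, beside 7.05 for Cps1. The summed linear signal of 9 adipocyte markers ran from 251 to 1749 on day 28, from 370 to 3314 on day 21 and between 792 and 3275 over the other 4 days, against 795 to 1608 in healthy mice, and it was lowest in day 28 mouse 2 and day 21 mouse 4, where Orm1 read 0.00 and 3.31. Orm1 also read 0.00 in day 16 mouse 2 and healthy mouse 4, and 0.01 in day 28 mouse 5. The lowest adipocyte sums of the day 16 and healthy mice were 897 and 795. The part of fat cells in the Orm1 values was not tested.

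Other cell markers also moved between 2 and 7 days. Of all genes tested 3.41% were higher and 2.93% lower after 2 days, and 4.1% were higher on day 23 than in healthy mice. Of 9 macrophage markers tested 3 were higher after 2 days, namely Arg1 (fitted 75.7-fold, above background in 15 of 15 mice against 3 of 15), Chil3 (11 of 15 against 1 of 15) and Mrc1 (1.93-fold), while Itgam, Ccr2 and Msr1 were above background in no array. The summed macrophage signal ran from 18770 to 39893 after 2 days and from 14685 to 24922 after 7 days, against 21119 to 29245 in healthy mice. Lyz1 and Lyz2 carried most of this sum in healthy mice, with mean log2 signals of 13.90 and 12.29, beside 8.98 for Mrc1. The sum is therefore no measure of macrophage number. Of 10 squamous markers 2 were higher, Krt13 (fitted 7.53-fold, above background in 15 of 15 mice against 9 of 15) and Sprr1a (2.16-fold). The summed signal of the list reached 46204 on day 9 and 40085 on day 14, the days with squamous arrays, against 1234 in healthy mice. On days 21 and 28 it reached only 1250 and 1223. Its medians were 1472, 1646 and 1905 on days 9, 16 and 23. They were 1102, 1048 and 1132 on days 14, 21 and 28, against 1115 in healthy mice. Of 6 smooth muscle markers Myh11, Tagln and Des were lower after 2 days, by 0.57 log2 units at most, with sums of 32077 to 68131 and 50566 to 70618, against 57368 to 70425 in healthy mice. Of 6 B and plasma cell markers Mzb1 and Tnfrsf17 were lower, with sums of 289 to 3012 after 2 days and 767 to 3037 after 7 days, against 1380 to 2988 in healthy mice. On day 23, 3 of 7 endothelial markers (Pecam1, Eng and Vwf) and 3 of 8 fibroblast markers (Col1a1, Col3a1 and Pdgfra) were higher than in healthy mice, with endothelial sums of 1208 to 1602, against 766 to 946, and fibroblast sums of 16272 to 19358, against 13900 to 15385. The part of these cells in the values of the members was not tested.

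Among genes listed for other acute phase proteins that rise in inflammation, or for their relatives, 22 of 32 were tested. Of these, 3 were higher on day 9 (1.38% of all genes), 2 on day 16 (2.31%) and 0 on days 14 and 21 (0.271% and 0.371%). On day 23 3 were higher (4.1%) and on day 28 1 (0.835%). On days 14 and 21 limma gave 3 and 1 of the 22 an unadjusted p under 0.05, 13.6% and 4.55% of the list beside 11.1% and 12.1% of all genes. The median change of the list was 0.21 on day 9 and 0.32 on day 23, beside -0.02 for all genes. Serpina3n, a protease inhibitor related to antichymotrypsin, rose 5.79-fold on day 9 (adjusted p = 0.0011), 4.87-fold on day 16 (adjusted p = 0.0023) and 9.66-fold on day 23 (adjusted p = 1.9e-05). Ptx3, a pentraxin made by myeloid and stromal cells, was at least 2.63-fold higher on day 9 (adjusted p = 0.022) and at least 1.83-fold higher on day 23 (adjusted p = 0.026), and Mt1, a metallothionein, rose on days 9, 16 and 23. The 1 gene called on day 28 was the complement gene C4b, 1.70-fold higher (adjusted p = 0.039). Between 2 and 7 days 4 of these genes were higher (3.41% of all genes), among them Serpina3n (4.36-fold, adjusted p = 7.8e-07), Ptx3 and Mt2. Lower was 1 (2.93% of all genes), Hamp2, listed as a relative in the hepcidin family, by 2.54 log2 units (SE 0.34, adjusted p = 1.4e-05).

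Of the proteins known to fall in the acute phase, 6 of 9 genes were tested. Ttr, which encodes transthyretin, was 1.07 log2 units lower 2 than 7 days after an instillation (SE 0.22, adjusted p = 0.0031). Apoa1 moved the other way, at least 4.97-fold higher on day 9 than in healthy mice (adjusted p = 6e-05), with 4 of the 5 day 9 mice and none of the healthy mice above background. Whether the Apoa1 change holds without the muscle or squamous arrays was not tested. On day 23 Trf, which encodes transferrin, was 1.64-fold higher (adjusted p = 0.016).

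Among inducing cytokines and their receptors, 20 of 23 genes were tested, with 3 higher on day 9, 0 on day 16, 4 on day 23 and 5 between 2 and 7 days, and a median change of 0.44 on day 9 and 0.58 on day 23. Of all genes tested 1.38%, 2.31%, 4.1% and 3.41% were higher in these 4 comparisons, and 0.835% on day 28. Osm, a cytokine of the Il6 family made by myeloid cells, was at least 4.06-fold higher on day 9 (adjusted p = 0.0089) and at least 3.90-fold on day 23 (adjusted p = 0.0032). Il1b was 3.07 log2 units higher on day 9 (adjusted p = 0.015) and 2.32 on day 23 (adjusted p = 0.035). Il11 had a fitted difference of 3.55 on day 23 (adjusted p = 0.012), above background in 5 of 5 mice against 1 of 4 healthy mice. For day 16 limma gave 5 genes of this list an unadjusted p under 0.05, beside 17.8% of all genes. Of the transcription factors and feedback inhibitors, 13 of 15 genes were tested, with 3 higher on day 9, 2 on day 16, 4 on day 23, 1 on day 28 and 3 between 2 and 7 days, and median changes of 0.12 on day 9 and 0.36 on day 23. Cebpb, the C/EBP factor of the acute phase response, was 2.41-fold higher on day 9 (adjusted p = 0.00025), 1.82-fold on day 16 (adjusted p = 0.0061) and 2.20-fold on day 23 (adjusted p = 0.00025), and Socs3, the feedback inhibitor of Stat3, 3.01-fold on day 9 (adjusted p = 0.018) and 3.25-fold on day 23 (adjusted p = 0.0038). Bcl3, a partner of NF-kappaB, was also 2.17-fold higher on day 28 (adjusted p = 0.0033).

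Receptors and partners of the proteins were tested for 17 of 19 genes. Of these, 1 was higher on day 9 (1.38% of all genes), 0 on day 16 (2.31%), 4 on day 23 (4.1%) and 6 between 2 and 7 days (3.41%). The median change was 0.41 on day 9 and 0.18 on day 23. On day 16 limma gave 5 genes an unadjusted p under 0.05, 29.4% of the list beside 17.8% of all genes. Cd163, the macrophage receptor of the complex of haptoglobin with haemoglobin, was 3.36-fold higher on day 23 (adjusted p = 0.008) and 2.88-fold higher after 2 than after 7 days (adjusted p = 5.4e-05). Hmox1, which degrades the haem so taken up, was 3.79-fold higher on day 9 (adjusted p = 0.034) and 3.46-fold on day 23 (adjusted p = 0.022). Fpr2, a receptor at which serum amyloid A acts, was 3.18-fold higher after 2 than after 7 days (adjusted p = 0.0091). Slc40a1, the iron exporter ferroportin for which ceruloplasmin is the ferroxidase, fell by 0.70 log2 units on day 23 (adjusted p = 0.012) and by 0.68 on day 28 (adjusted p = 0.044), and was the 1 gene of the list called lower on either day.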

How the data were processed

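Total RNA of the distal colon of 34 mice was measured on Illumina mouse bead arrays with 1 colour, 1 array per mouse. Per the methods, background was subtracted, values were quantile normalized, probes without expression were dropped and a floor of 5 preceded limma. The deposited log2 values cover 25697 probes and reach below this floor, so floor and filter were applied here, and their log2 scale was inferred from the values. Another 68 columns of signals and detection p-values carry chip positions as names and were not used, since no source ties them to mice. Quantile normalization assumes similar distributions in all arrays and hides any overall shift.

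With a floor at a linear 5, 21110 probes exceeded it in 4 or more arrays and were fitted with limma 3.58.1 in R 4.3.3, in 7 groups with 27 residual degrees of freedom. The Benjamini-Hochberg adjustment was made within each comparison. The probe with the highest mean represents a gene. Symbols come from the platform annotation. Named are all 9 members, up to 3 genes per direction of each other list with the largest changes past the test, and the 3 genes most correlated with each member above background in at least 17 arrays. The members and lists were chosen with earlier results of these data known. Cp has a second promoter entry, and its match is in 1 of the 2. The limma fit was tested on simulated data, with changes planted on day 9 in probes with a mean log2 signal above 7. Hp, Saa2, Saa3, Lcn2, Orm1 and Orm2 had lower means, and the lower bounds were not simulated. Alternatives were a floor of 20, no floor, no probe filter, pairwise fits, trend and robust eBayes, array weights, a replicate block, the mean of probes, adjustment over 6 days, a fold of at least 1.5, a stricter background, and each array left out. Fits without muscle or squamous arrays, and the alternatives for the single cycles, were added after seeing the data.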

Additional observations from a re-analysis of the deposited data

Results flagged for a closer look

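In 9 of the 63 sets of mice (9 genes in 7 groups, floored signals) the highest or lowest mouse stood apart by Dixon's criterion. Chance meets it in about 1 of 20 sets of independent normal values. That rate cannot be set against these sets, since floored signals tie and the genes share mice. The Orm2 set of day 9 lay wholly at the floor and could not be tested. Day 21 mouse 3 was set apart for 3 genes, with a log2 signal of 9.89 for Saa3 (next mouse 5.35), 8.27 for Lcn2 (next 4.44) and 9.47 for Lrg1 (next 7.61). Day 14 mouse 4 had 7.12 for Lcn2 (next 4.59), and its array is among those with squamous markers. Day 14 mouse 2 had 4.82 for Saa2 (next 6.17). Healthy mouse 4 had the floor value of 2.32 for Orm1 (next 4.53). Orm2 was set apart 3 times, at 8.08 in day 23 mouse 1 (next 3.59), 3.51 in day 16 mouse 5 (next 2.33) and 3.73 in day 28 mouse 3 (next 2.32), of which the last 2 were below background.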

How the results depend on the processing

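No change past the test turned its direction under any alternative, and Hp against healthy mice on days 9, 16 and 23, and Hp, Lrg1 and Cp between 2 and 7 days, were called in all of them. The count of members higher on day 9 was 1 in pairwise fits, 1 without the muscle arrays, 1 without the squamous arrays and 1 to 2 with single arrays left out, against 2. It was 2 instead of 1 on day 16 and 1 instead of 2 on day 23 in pairwise fits (Lrg1 on day 23, adjusted p = 0.19), and 0 to 1 on day 21 with single arrays left out, where Hp passed without mouse 4 (adjusted p = 0.033). Members lower on day 23 numbered 1 with a floor of 20 (Saa1), 2 with array weights and 0 to 2 with single arrays left out (1 without day 14 mouse 2 or day 21 mouse 3, 2 without day 23 mouse 1), and on day 28 1 with array weights and 0 to 1 with single arrays left out (1, Saa1, without day 23 mouse 1 or mouse 5). Between 2 and 7 days 3 of the 5 (Hp, Lrg1 and Cp) remained without the muscle arrays. Day 9 against 14 gave 0 in pairwise fits, 0 without the muscle arrays, 1 without the squamous arrays and 1 to 4 with single arrays left out, and day 23 against 28 gave 1 in pairwise fits and 2 to 5 with single arrays left out. The causes were not tested, beyond the fewer arrays of such fits.

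Mouse numbers only name the animals, which differ between days. With the number as a replicate block the counts were unchanged, at 2 on day 9, 1 on day 16, 2 on day 23 and 5 between 2 and 7 days. Arrays of the same number were not closer than others (median r of deviations 0.0058 against 0.00011). With 4 or 5 mice a group and an SD of 2.08 log2 units for Lcn2, differences of the size seen on day 9 did not pass, and for signals below background only bounds are known.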
